A study of Arabidopsis thaliana with 9 samples.

Results

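The plastid-encoded genes of Arabidopsis thaliana were followed in whole rosettes of 4-week-old plants under long days (16 h light, 8 h dark). They were taken as the rows of the count table whose locus ID starts with ATCG, the prefix of the plastid chromosome in Arabidopsis locus IDs, and there were 133 such rows among 32833 genes. Libraries of 3' mRNA tags were made from 3 genotypes with 3 replicates each. WT is the wild type and carries no other label. TINYOE has the genotype BES1P::TINYOE, in which the labels do not explain BES1P, and is named for overexpression of TINY, an AP2/ERF transcription factor. tiny124 has the genotype tiny1tiny2tiny4 and is named for lesions in 3 genes. The labels do not say whether TINYOE or tiny124 is a single line, nor whether a replicate is a plant, a pool or a repeat of a library, so p-values reflect the spread between libraries alone, and that spread could be technical.

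The plastid genome descends from that of a cyanobacterium and encodes core subunits of photosystems I and II, the cytochrome b6f complex, the ATP synthase and the NADH dehydrogenase-like (NDH) complex, the large subunit of Rubisco, part of the plastid ribosome and RNA polymerase, and rRNAs and tRNAs. It is transcribed by a bacterial-type polymerase, whose core is plastid-encoded and whose sigma factors come from the nucleus, and by nuclear-encoded phage-type polymerases. Most of the remaining subunits of the photosynthetic complexes are nuclear genes. Plastid mRNAs are mostly processed from transcripts that span several genes and carry no stable poly(A) tail, and a tail added to them marks them for degradation. The library kit primes on A stretches, so a plastid count is a count of reads primed on a tail or on A bases within the RNA, and which of them gave the reads was not tested. Counts were not scaled by length, and a difference in count between rows is a difference in reads, not in transcript number.

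The deposited tables give plastid rows by locus ID only, and the reference annotation used here, RefSeq TAIR10.1, labels its plastid genes with another series of tags. Notes in that annotation tie IDs to names, and 6 of the 133 rows are named here on that ground. Of these, 5 have a gene symbol of the plastid record. The names were picked by hand from such notes, without a rule, so the 6 rows do not stand for the other rows. ATCG00530 is cemA, an envelope membrane protein. ATCG00660 is rpl20 and ATCG01310 is rpl2, proteins of the large ribosomal subunit. ATCG00670 is clpP, the plastid-encoded proteolytic subunit of the Clp protease of the stroma. ATCG00420 is named as the parent of a nuclear pseudogene of 188 bases, 169 of which align to the plastid record at 88.2% identity and over ndhJ, a subunit of the NDH complex. ATCG00430 is called photosystem II reaction center protein G, an old name of a gene later recognised as coding for an NDH subunit, and has no symbol in the plastid record under that name. All other rows that are described are given by locus ID, without a name or a role.

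Because reads start from A stretches, the longest run of A on the sense strand of each of the 5 genes with a symbol is shown in capitals, with up to 20 bases on either side, 5′ to 3′, as RefSeq gives the plastid record of TAIR10.1. The labels name TAIR10, an earlier release, as the genome the reads were mapped to, and whether the 2 releases differ at these sites was not tested.
ndhJ: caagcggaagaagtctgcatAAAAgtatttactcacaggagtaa
cemA: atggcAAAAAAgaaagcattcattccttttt
rpl20: tatacaatttcgaatgacatAAAAAAAtaa
clpP: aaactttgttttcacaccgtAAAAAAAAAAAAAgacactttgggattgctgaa
rpl2: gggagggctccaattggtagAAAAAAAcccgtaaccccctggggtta
The run of ndhJ has 4 A, that of cemA 6, those of rpl20 and rpl2 7 each, and that of clpP 13. The run of rpl20 ends 3 bases before the end of the gene, that of cemA lies just behind its start codon, and that of clpP lies in an intron. Among the 85 protein-coding genes of the plastid record, 57.6% hold a run of at least 6 A, 44.7% at least 7 and 11.8% at least 10. A run is a description of the sequence and does not show that reads started there.

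Library totals ranged from 4917868 to 6070778 counts, and plastid rows held between 202055 and 315056 of them. TINY (AT5G25810) had 18 to 25 counts in WT, 27 to 35 in TINYOE (log2 fold change 0.40, adjusted p = 0.343 by edgeR's quasi-likelihood test) and 3 to 5 in tiny124 (-2.48, adjusted p = 0.00168). Its counts were higher in every TINYOE library than in every WT library, and the difference did not pass the test. TINY2 (AT5G11590) had 5 to 11 counts in WT, at most 2 in a TINYOE library and at most 1 in a tiny124 library. The 4 leaf markers summed to 46071 to 55552 CPM (counts scaled by the TMM-adjusted library size) in WT, 34816 to 44102 in TINYOE and 44214 to 54423 in tiny124, so that every TINYOE library lay below the rest. The highest TINYOE sum was close to the lowest tiny124 sum. Of the 4 leaf markers, RBCS1A (-0.49, adjusted p = 0.0301) and RCA (-0.61, adjusted p = 0.0225) fell in TINYOE. Over all genes 7.44% were called lower. CAB2, the largest part of the sum (-0.30, adjusted p = 0.309), and LHCA4 (-0.21, adjusted p = 0.349) were not called. In both, TINYOE and WT libraries overlapped. None of the 3 root markers exceeded 2 counts in any library. The 4 flower markers summed to 14.8 to 28.1 CPM in WT, 24.0 to 56.8 in TINYOE and 24.8 to 29.2 in tiny124, and none of them was at 0 in any library. All 4 had an unadjusted p below 0.05 in TINYOE against WT, with log2 fold changes from 0.95 to 1.70. Of the 4, 1, PI, passed the test (0.96, adjusted p = 0.0282). Over all genes 8.15% were called higher, and no share over all genes is given at the unadjusted cut. The part of the flower markers in the plastid results was not tested.

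The plastid share of a library's counts was lower in TINYOE than in either other genotype. It was 5.67%, 5.34% and 5.36% in WT replicates 1, 2 and 3, then 3.97%, 3.67% and 3.99% in TINYOE, beside 5.15%, 5.08% and 5.50% in tiny124. All 3 TINYOE libraries lay below all the others, while WT and tiny124 overlapped. The means were 5.46% ± 0.184 in WT, 3.88% ± 0.178 in TINYOE and 5.24% ± 0.225 in tiny124 (SD, n = 3), a ratio to WT of 0.711 in TINYOE and 0.961 in tiny124. No test is given for a sum over rows chosen with earlier results known. A share is relative to the other counts of the library, and plastid reads depend on tails or A bases. In whole rosettes, fewer plastids or plastid-bearing cells and less plastid RNA per cell cannot be told apart. Nor can they be told apart from a change in the tails or in the nuclear counts.

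Mitochondrial rows, which the kit reads in the same way, are set beside the plastid share. They held 0.350%, 0.163% and 0.250% of the counts in WT, 0.137%, 0.158% and 0.129% in TINYOE, with 0.222%, 0.135% and 0.268% in tiny124. TINYOE was below WT in all 3 libraries here too, although tiny124 replicate 2 lay within the TINYOE range. The ratio of the TINYOE mean to the WT mean was 0.555. Nuclear rRNA loci held at most 0.00284% of the counts in any library.

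**Figure D1:**
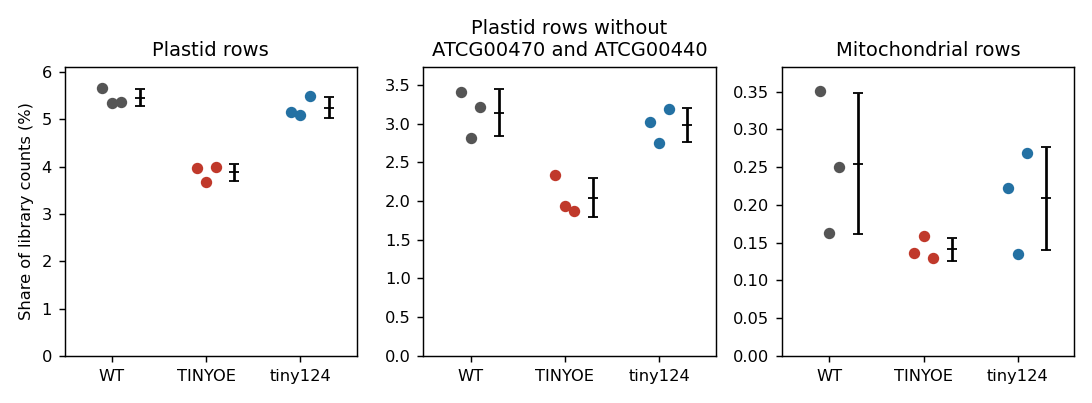
Share of library counts (%) in plastid rows, in plastid rows without the 2 highest rows, and in mitochondrial rows, for the 3 genotypes; points are libraries, in the order of replicates 1, 2 and 3, and the bars beside them give the mean ± SD (n = 3). The 3 TINYOE libraries lie at 3.67% to 3.99% for plastid rows, below the 5.08% to 5.67% of the other 6.

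Plastid counts were concentrated in few rows. ATCG00470 held 28.6% of all plastid counts, ATCG00470 and ATCG00440 together 44.0%, the 5 highest rows 60.1%, the 10 highest 73.1% and the 20 highest 88.3%. At the other end, 31 rows had no count in any library. A further 20 had some counts but were removed by the filter on low counts, the highest of them with 61 counts over all 9 libraries. These 51 untested rows held 0.0132% of the plastid counts.

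The untested rows were not spread evenly over the series of locus IDs. The 11 rows from ATCG00830 to ATCG00920 held 21 counts in all, the 7 from ATCG00940 to ATCG01000 held 9, and the 18 from ATCG01140 to ATCG01310 held 52. rpl2 (ATCG01310) lay at the end of the last run, with 0 counts in every library. RefSeq lists it in 2 identical copies and lists 11 plastid gene names 2 times in all. How reads that match both copies were counted is not given in the sources used here, so a count of 0 says nothing about its level.

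Of the 82 rows tested, 78 had a mean equivalent to at least 10 counts in a library of median size in every genotype. The others were ATCG00200, ATCG00580, ATCG00700 and ATCG00930. The means of ATCG00580, ATCG00700 and ATCG00930 reached that level in WT and tiny124 but not in TINYOE (1.02, 1.24 and 1.53 CPM). These rows thus passed the filter mainly through the genotypes where they were higher, and all of them were called lower in TINYOE below. The levels spanned from 1.23 CPM for ATCG00200 to 13956 CPM for ATCG00470 as means over the 9 libraries.

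The first comparison asked how plastid RNA differs where TINY is labelled as overexpressed, TINYOE against WT. Of the 82 plastid rows tested, 55 fell in TINYOE and 0 rose (edgeR's quasi-likelihood test over 16434 genes, adjusted p below 0.05). Over all genes tested, 7.44% were called lower and 8.15% higher. The median log2 fold change of the plastid rows was -0.98, beside 0.00 over all genes. At an unadjusted p below 0.05 there were 65 plastid rows in either direction, ATCG00620 among them with a log2 fold change above 0. DESeq2 called 53 lower and 0 higher. Shares over all genes are not given for either of these counts, so they are not set against a background. In 38 of the 55 the fall was at least 2-fold.

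In 52 of the 55 rows called, every TINYOE library lay below every WT library, and ATCG00100, ATCG00700 and ATCG01100 were called although their libraries overlapped. Another 3 rows, ATCG00550, ATCG00690 and ATCG01040, did not overlap and were not called. That makes 55 rows that did not overlap with TINYOE lower, and 0 with TINYOE higher, while over all genes 15.3% were lower without overlap. The share called was similar at high and middle levels, with 26 of 39 rows of at least 100 CPM and 23 of 30 rows of 10 to 100 CPM, and was 6 of 13 below 10 CPM. In the authors' deposited table, which does not hold WT replicate 2, 49 plastid rows were lower and 0 higher among 89 with an adjusted p, where 8.37% of all genes were lower and 9.09% higher.

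**Figure D2:**
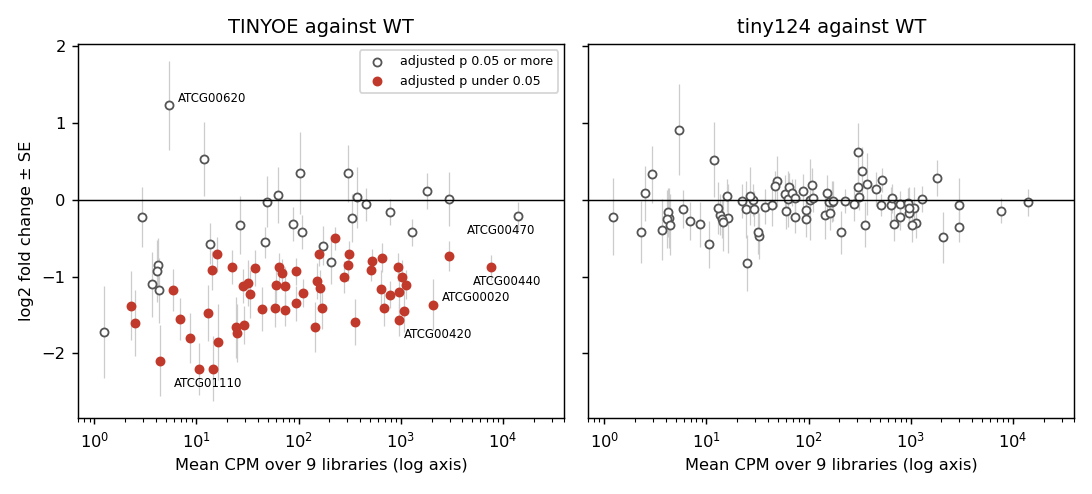
log2 fold change (± SE) of the 82 plastid rows tested against the mean CPM over 9 libraries, on a log axis, with TINYOE over WT on the left and tiny124 over WT on the right; filled points passed the test at an adjusted p under 0.05. In TINYOE 74 rows lie below 0 and 55 passed the test, and in tiny124 none passed.

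All 5 tested rows named above, which were picked by hand, fell in TINYOE, and none was called in tiny124. ndhJ (ATCG00420) stood at 1664, 941 and 1258 CPM in WT, 479, 386 and 441 in TINYOE, against 1108, 932 and 1396 in tiny124. All 3 TINYOE values lay far below the lowest value of the other genotypes. The log2 fold change against WT was -1.56 ± 0.21 in TINYOE, with the smallest adjusted p of any plastid row (0.000134), and -0.17 ± 0.20 in tiny124 (adjusted p = 0.84).

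rpl20 (ATCG00660) had 190, 187 and 177 CPM in WT, 114, 103 and 122 in TINYOE, with 175, 176 and 190 in tiny124. Its libraries were close together in every genotype, with TINYOE below the rest. The change was -0.71 ± 0.15 (adjusted p = 0.00404).

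clpP (ATCG00670) had 126, 106 and 115 CPM in WT, 75.7, 54.7 and 51.3 in TINYOE, against 115, 96.9 and 104 in tiny124. TINYOE did not overlap with either genotype, and the change against WT was -0.93 ± 0.18 (adjusted p = 0.00221). cemA (ATCG00530) had 35.3, 30.9 and 38.1 CPM in WT, 20.9, 15.8 and 11.3 in TINYOE, beside 33.5, 29.4 and 41.2 in tiny124. It was again TINYOE alone that stood apart, with a change of -1.12 ± 0.22 (adjusted p = 0.00286). ATCG00430, the row with the old photosystem II name, had 56.8, 71.6 and 88.5 CPM in WT, 42.2, 40.1 and 35.5 in TINYOE, with 87.4, 81.5 and 75.0 in tiny124. It fell by 0.88 ± 0.18 on the log2 scale (adjusted p = 0.00408), and its WT libraries spanned more than its TINYOE or tiny124 libraries did.

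**Figure D3:**
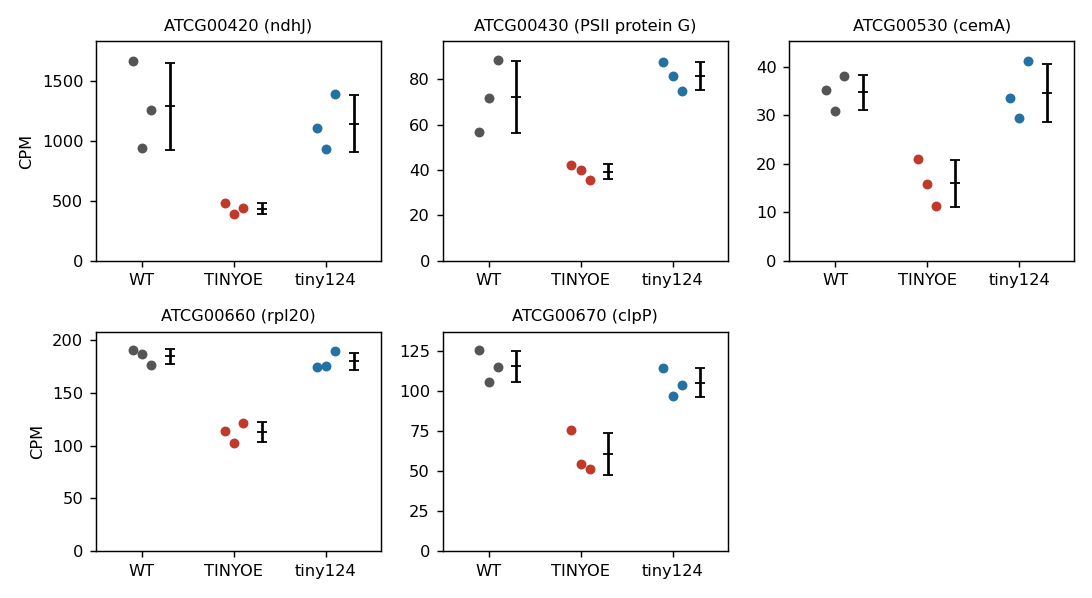
CPM of 5 tested plastid rows named from the reference annotation, by genotype; points are libraries in the order of replicates 1, 2 and 3, and bars give the mean ± SD (n = 3). In each panel the 3 TINYOE libraries lie below the 3 WT and the 3 tiny124 libraries.

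Among the 10 rows of highest level, 6 fell in TINYOE. ATCG00440 had 11255, 8213 and 8358 CPM in WT, 4554, 5100 and 5462 in TINYOE, against 7743, 7876 and 9564 in tiny124. Its TINYOE libraries lay well below the others, with a change of -0.88 ± 0.17 (adjusted p = 0.00197). ATCG00490 had 1902, 1293 and 1311 CPM in WT, 710, 684 and 703 in TINYOE, beside 1138, 1007 and 1490 in tiny124, a change of -1.10 ± 0.19 (adjusted p = 0.000872). Its TINYOE libraries were nearly equal.

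ATCG00330 had 1596, 855 and 1796 CPM in WT, 511, 487 and 564 in TINYOE, with 1087, 885 and 1976 in tiny124, a change of -1.44 ± 0.28 (adjusted p = 0.00254). ATCG00680 had 1666, 1012 and 1356 CPM in WT, 749, 666 and 593 in TINYOE, against 996, 753 and 1455 in tiny124, a change of -1.01 ± 0.23 (adjusted p = 0.00653). In both rows replicate 2 was the lowest library of WT and of tiny124. ATCG00630 had 5133, 2737 and 3202 CPM in WT, 2377, 2122 and 2186 in TINYOE, beside 2824, 2897 and 2950 in tiny124, a change of -0.73 ± 0.20 (adjusted p = 0.0181). ATCG00020 had 5147, 1679 and 1992 CPM in WT, 936, 1425 and 1064 in TINYOE, with 2050, 1525 and 2694 in tiny124, a change of -1.36 ± 0.33 (adjusted p = 0.0107). In these 2 rows WT replicate 1 stood far above the other WT libraries. Without it ATCG00630 lost the call (-0.40, adjusted p = 0.0909), and ATCG00020 kept it at a smaller size (-0.67, adjusted p = 0.0471). ATCG00630 also lost the call without TINYOE replicate 2 (-0.69, adjusted p = 0.0752) and without TINYOE replicate 3 (-0.71, adjusted p = 0.0618). By DESeq2 ATCG00020 stood at -1.37 (adjusted p = 0.052) and without TINYOE replicate 1 at -1.24 (adjusted p = 0.0524), past the threshold in neither.

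The other 4 of the 10 highest rows were not called. ATCG00470, the row with the most counts, had 12669, 18129 and 13470 CPM in WT, 10921, 11701 and 15546 in TINYOE, against 13201, 15604 and 14366 in tiny124. The genotypes overlapped, and the log2 fold change in TINYOE was -0.21 ± 0.18 (adjusted p = 0.444). Its share of the plastid counts was 21.2%, 32.6% and 24.7% in WT, 29.1%, 33.0% and 39.3% in TINYOE, beside 26.1%, 30.6% and 25.3% in tiny124, with overlap between WT and TINYOE. Without this row the plastid share of the library was 2.42% to 2.82% in TINYOE, 3.60% to 4.47% in WT and 3.53% to 4.11% in tiny124. The ratio of TINYOE to WT then moved from 0.711 to 0.636.

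ATCG00030 had 1345, 5368 and 2214 CPM in WT, 3422, 2693 and 2843 in TINYOE, with 2763, 3693 and 2063 in tiny124. The lowest and the highest of all its libraries were both WT, and the change in TINYOE was 0.01 ± 0.35 (adjusted p = 0.993). ATCG00220 had 937, 1854 and 2135 CPM in WT, 2055, 1652 and 1631 in TINYOE, against 2161, 2164 and 1664 in tiny124, a change of 0.12 ± 0.23 (adjusted p = 0.776). ATCG01040 had 1707, 1206 and 1327 CPM in WT, 861, 1178 and 1119 in TINYOE, beside 1363, 1345 and 1543 in tiny124, a change of -0.42 ± 0.17 (adjusted p = 0.105). Only in ATCG01040 of these 3 did TINYOE lie below WT in every library.

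Of the remaining rows called, those with at least 100 CPM fell by log2 fold changes between -0.50 and -1.65. The largest falls were -1.65 for ATCG00270, -1.59 for ATCG00480, -1.41 for ATCG00280 and -1.41 for ATCG00560. ATCG00480 is the ID next to ATCG00470 and had 746, 313 and 438 CPM in WT, 146, 151 and 201 in TINYOE, with 328, 277 and 588 in tiny124. It fell (adjusted p = 0.00208) without overlap, whereas its neighbour in the ID series, at a much higher count, was not called. Falls of at least 2-fold were also found at -1.23 for ATCG00040, -1.21 for ATCG00760, -1.20 for ATCG01050, -1.16 for ATCG00170, -1.14 for ATCG00510, -1.06 for ATCG00790 and -1.01 for ATCG00180. Smaller falls were -0.91 for ATCG00130, -0.87 for ATCG00540, -0.85 for ATCG00800, -0.80 for ATCG01130, -0.75 for ATCG00300, -0.71 for ATCG00380 and -0.50 for ATCG00190. The libraries of each of these rows were lower in TINYOE than in WT without overlap. The call of ATCG00190, the smallest fall, was lost in 8 of 13 alternative analyses.

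Between 10 and 100 CPM the falls reached further. ATCG01090 had 35.3, 7.41 and 22.0 CPM in WT, 5.27, 5.43 and 3.42 in TINYOE, against 17.3, 12.9 and 22.9 in tiny124, and ATCG01110 had 26.4, 8.68 and 15.9, then 3.13, 4.73 and 3.25, and 10.7, 10.6 and 12.9. Both changed by -2.20 in TINYOE (adjusted p = 0.00226 and 0.000451), the largest falls of any plastid row, and in both WT replicate 2 was far below the other WT libraries while still above TINYOE. Next came -1.85 for ATCG00100, -1.73 for ATCG00370, -1.66 for ATCG00140, -1.63 for ATCG00780, -1.47 for ATCG01100, -1.44 for ATCG00120, -1.43 for ATCG00160 and -1.40 for ATCG00360. ATCG00350 stood at -1.23, ATCG01120 at -1.12, ATCG00710 at -1.11, ATCG00450 at -1.08, ATCG01010 at -0.95, ATCG01060 at -0.92, ATCG00070 at -0.90, ATCG00520 at -0.88 and ATCG00310 at -0.71. Not all of these calls were stable. ATCG00310 kept the call in 7 of 13 alternative analyses, and ATCG00100 in 9 of 13, not by DESeq2.

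The 6 rows called below 10 CPM rested on few reads per library. ATCG00930 changed by -2.09, ATCG01080 by -1.80, ATCG00580 by -1.60, ATCG00050 by -1.55, ATCG00700 by -1.38 and ATCG00150 by -1.18. Of these, ATCG00580, ATCG00700 and ATCG00930 passed the filter mainly through WT and tiny124, so their calls are weak support. ATCG00700 kept the call in 5 of 12 alternative analyses, not by DESeq2, and ATCG00580 in 7 of 11. ATCG01080 had 15.0, 9.95 and 11.9 CPM in WT, 3.95, 4.91 and 1.71 in TINYOE, beside 11.1, 6.78 and 11.8 in tiny124. TINYOE lay below both other genotypes (adjusted p = 0.00154 against WT).

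The 27 rows that were not called in TINYOE included 19 with a log2 fold change below 0 and 8 above it. Those above 0 were ATCG00030, ATCG00220, ATCG00340, ATCG00570, ATCG00590, ATCG00620, ATCG00730 and ATCG01020, with values from 0.01 to 1.23. The highest, ATCG00620, had 0.759, 4.02 and 4.58 CPM in WT, 12.8, 2.45 and 6.49 in TINYOE, with 7.91, 7.28 and 2.36 in tiny124 (1.23 ± 0.58, adjusted p = 0.163). It ranged widely within every genotype.

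Libraries of a genotype differed most in rows of this kind. ATCG00730 had 15.8, 189 and 78.1 CPM in WT, 174, 91.0 and 93.6 in TINYOE, against 108, 116 and 57.2 in tiny124. Its highest WT library was 12.0 times its lowest, the widest gap within a genotype among the 39 rows of at least 100 CPM. ATCG00340 had 207, 292 and 555 CPM in WT, 619, 151 and 304 in TINYOE, beside 384, 529 and 301 in tiny124. ATCG01020 had 148, 257 and 312 CPM in WT, 408, 162 and 338 in TINYOE, with 299, 613 and 189 in tiny124. In both the 3 genotypes overlapped over most of their range.

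**Figure D4:**
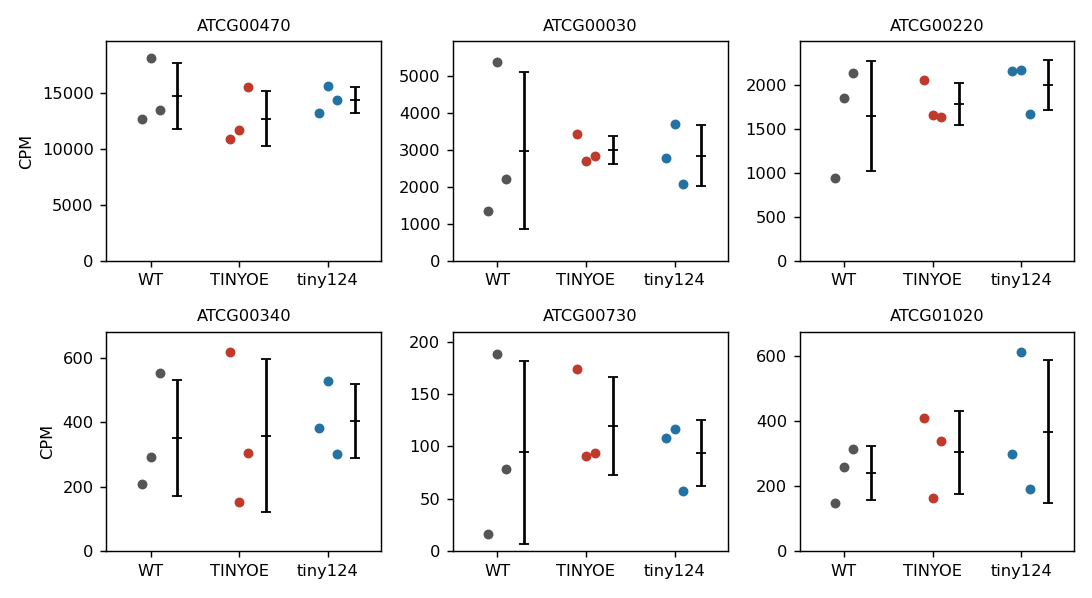
CPM of 6 plastid rows that were not called in TINYOE against WT, by genotype; points are libraries in the order of replicates 1, 2 and 3, and bars give the mean ± SD (n = 3). The genotypes overlap in every panel, and WT replicate 1 is the lowest WT library in each.

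The same libraries stood apart in many rows. In all 8 rows with a log2 fold change above 0, replicate 1 was the lowest WT library, replicate 1 the highest TINYOE library and replicate 3 the lowest tiny124 library. In 6 of the 8, WT replicate 1 was the lowest of all 9 libraries. Among the 55 rows called lower the order in WT ran the other way, with replicate 1 the highest WT library in 35 and replicate 2 the lowest in 47. In tiny124, replicate 3 was the highest library in 46 of those 55 rows and replicate 2 the lowest in 44. Over the 39 rows of at least 100 CPM, the highest library was a median of 1.69 times the lowest in WT, 1.34 times in TINYOE and 1.43 times in tiny124. Because the labels give no batch, whether these libraries were prepared or sampled differently was not tested.

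Without WT replicate 1, 51 plastid rows were lower and 0 higher, 49 of them among the 55, of which 6 lost the call. Without WT replicate 2 there were 60 lower and 2 higher, the latter being ATCG00030 and ATCG00730, in both of which WT replicate 2 was the highest of the 9 libraries. Leaving out TINYOE replicate 2 gave the fewest calls, 40 lower and 0 higher. No share over all genes is given for a fit that leaves out a library, here or below. Such counts are therefore not set against a background.

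**Figure D5:**
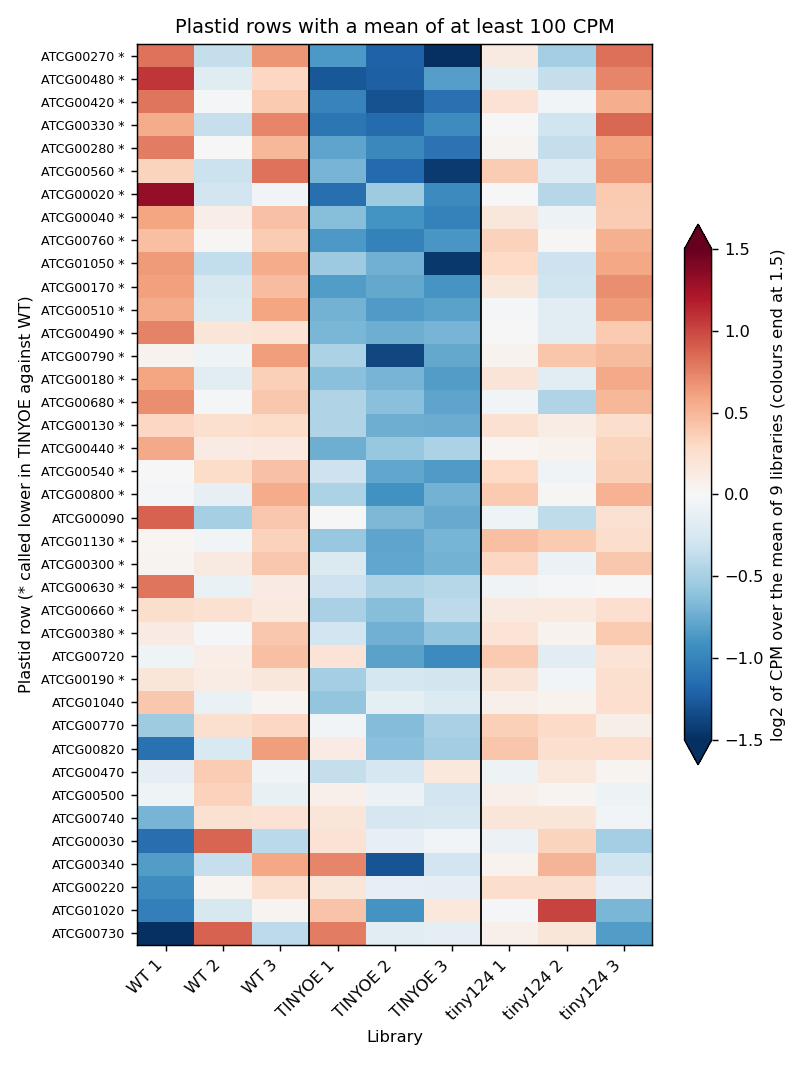
log2 of CPM over the mean of the 9 libraries for the 39 plastid rows with a mean of at least 100 CPM, ordered by the log2 fold change in TINYOE against WT; columns are libraries, and an asterisk marks the 26 rows called lower in TINYOE. In the 26 marked rows the TINYOE columns are blue, below the mean, and in most of the rows at the bottom WT replicate 1 is blue.

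The second comparison, of tiny124 with WT, asked the same of the mutant. No plastid row was called, 0 of 82 lower and 0 higher, where over all genes 0.755% were called lower and 1.75% higher. DESeq2 also called 0, and 1 row, ATCG00370, had an unadjusted p below 0.05 (log2 fold change -0.82, adjusted p = 0.379). The median log2 fold change of the plastid rows was -0.08, beside -0.01 over all genes. No row had tiny124 libraries that all lay to 1 side of the WT libraries, where over all genes 7.58% were lower and 8.23% higher without overlap. The authors' deposited table called none of its 78 plastid rows with an adjusted p, where 0.97% of all genes were lower and 1.96% higher.

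A missed threshold does not show that the genotypes are alike. Among the 39 rows of at least 100 CPM, the log2 fold change lay between -0.49 for ATCG00020 and 0.62 for ATCG01020, within 0.5 of 0 in 38 of 39, and the median SE was 0.22. The 5 named rows lay between -0.17 for ndhJ and 0.17 for ATCG00430.

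TINYOE against tiny124 set the 2 genotypes other than WT side by side. Of the 82 rows, 47 were lower in TINYOE and 0 higher, where over all genes 4.73% were lower and 5.12% higher. The median log2 fold change was -0.85, beside 0.01 over all genes. DESeq2 called 45 lower and 0 higher, for which no share over all genes is given. In 58 rows every TINYOE library was below every tiny124 library, where 15.3% of all genes were lower without overlap. This comparison shares the TINYOE libraries with that against WT, so the counts are not independent of each other. All 5 named rows were lower in TINYOE than in tiny124, among them ndhJ at -1.40 (adjusted p = 0.00038) and rpl20 at -0.67 (adjusted p = 0.00749). ATCG00760 had the smallest adjusted p (-1.23, adjusted p = 0.000318), and ATCG01090 the largest difference (-1.90). ATCG00810 was the 1 row called here and not against WT (-0.73, adjusted p = 0.0266, beside -0.56 and 0.067 against WT). The count fell to 27 without TINYOE replicate 2, to 29 without TINYOE replicate 3 and to 29 without tiny124 replicate 3.

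The share of each row within the plastid counts sets the summed level aside. Among the 39 rows of at least 100 CPM, this share was lower in every TINYOE library than in every WT library for 10 rows and higher for 2, and overlapped for 27. The 10 rows were ATCG00040, ATCG00130, ATCG00280, ATCG00330, ndhJ, ATCG00440, ATCG00480, ATCG00490, rpl20 and ATCG00760. The 2 rows with a higher share were ATCG00220 and ATCG00740, neither of which was called by CPM. A share within the plastid counts falls in one row where it rises in another. No share over all genes can be set beside these counts, so they are a description only. Whether plastid rows changed unequally was not tested.

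Nuclear genes that work with the plastid genome were read in the same fit. Among 35 nuclear subunits of the photosynthetic complexes and Rubisco, 9 fell in TINYOE and 1 rose, where over all genes 7.44% were lower and 8.15% higher. Their median log2 fold change was -0.25, beside 0.00 over all genes. The 4 genes of the Rubisco small subunit all fell, by -0.49 for RBCS1A (adjusted p = 0.0301), -0.83 for RBCS1B (adjusted p = 0.0249), -0.89 for RBCS2B (adjusted p = 0.0011) and -0.76 for RBCS3B (adjusted p = 0.00745). These are near-identical copies, so reads may be split among RBCS1B, RBCS2B and RBCS3B in ways not given in the sources used here. Of 12 photosystem I genes PSAG (-0.72) and PSAH2 (-0.97) fell, and of 10 photosystem II genes PSBO2 (-0.58), PSBQ-2 (-0.54) and PSBY (-0.87). PSBR, a subunit of photosystem II, rose by 0.81 ± 0.14 (adjusted p = 0.0011), from 9812 ± 857 to 17228 ± 219 CPM (SD, n = 3). No gene of the cytochrome b6f complex (2), the ATP synthase (3) or the NDH complex (4) in the list was called. The count of subunit genes called lower was 3 without WT replicate 3 and 5 without TINYOE replicate 2, and the count called higher was 3 without WT replicate 2.

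Of 21 nuclear genes for plastid transcription, 4 fell in TINYOE and 0 rose (median -0.31), beside the same 7.44% and 8.15% over all genes. They were the sigma factor genes SIGC (-0.85, adjusted p = 0.0247) and SIGE (-0.61, adjusted p = 0.0427), AT5G15700, a phage-type polymerase gene (-1.07, adjusted p = 0.0445), and TRX z, a thioredoxin of the plastid polymerase complex (-0.73, adjusted p = 0.043). These calls were close to the threshold. The count was 0 without WT replicate 1 or without TINYOE replicate 1, 1 without TINYOE replicate 2 or 3, and 2 without WT replicate 3 or in a fit of the 6 libraries compared only. In tiny124 against WT, SIGC stood at -0.50, SIGE at -0.64, AT5G15700 at -0.61 and TRX z at -0.09, none of them called. SIGE was thus about as low in tiny124 as in TINYOE (0.03 between them). Between TINYOE and tiny124, 0 of the 21 genes were called, where over all genes 4.73% were lower and 5.12% higher. Of 9 genes for plastid RNA processing and decay, 2 fell in TINYOE against WT and 0 rose (median -0.16). Both belong to the CSP41 pair of plastid RNA-binding proteins related to endoribonucleases, CRB (-0.94 ± 0.16, adjusted p = 0.000834) and CSP41A (-0.59 ± 0.17, adjusted p = 0.0234). CRB had 560, 458 and 509 CPM in WT, 278, 264 and 253 in TINYOE, against 403, 370 and 489 in tiny124. TINYOE lay below both genotypes for this gene. Without any 1 of the 3 TINYOE libraries the count of genes called lower in this list was 1. In tiny124 no gene of the 3 lists was called by edgeR, 0 of 35, 0 of 21 and 0 of 9, where over all genes 0.755% were lower and 1.75% higher. At an unadjusted p below 0.05 there were 0, 2 and 0 genes, and DESeq2 also called 0 in each list. For neither of these counts is a share over all genes given.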

How the data were processed

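Per the labels' protocols, 3' tag libraries (QuantSeq FWD) were trimmed and mapped to TAIR10 with the BlueBee pipeline, version 2.2.2; the sources used here give no aligner or annotation. The authors deposited raw counts per gene, not normalized. Per the file headers, they also deposited DESeq2 tables with log2 fold changes, p-values and adjusted p-values; the 2 tables together hold 8 of the 9 libraries, without WT replicate 2. The submitters' processing notes name DESeq2 without a version. These tables were used only for the authors' calls.

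edgeR's quasi-likelihood test (version 4.0.16 with limma 3.58.1 under R 4.3.3) was run in 1 fit of all 9 libraries after filterByExpr and TMM scaling, with genotype as the only term, with 6 residual degrees of freedom and a common biological coefficient of variation of 0.18. The filter kept 16434 genes and dropped 0.296% of the counts. Tests were two-sided, with Benjamini-Hochberg adjustment over all genes tested and a threshold of 0.05. Log2 fold changes carry a standard error after ±. It was computed back from the test, as the absolute log2 fold change over the square root of the F statistic. CPM uses TMM-scaled library sizes. The procedure was tested on simulated data.

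The rule for members and the gene lists were chosen with earlier results of these data known. Values were given for every plastid row called in any comparison and the 10 rows of highest mean CPM, and for the nuclear lists for up to 3 called genes of each role. An item covered by this rule is not reported here. The fourth genes of Rubisco and photosystem II, and the rows named that were not called and are not among the 10 highest, were chosen after their values were seen. The rule's clause on roles of plastid rows was not applied, because 127 plastid rows have no name here. No genome coordinates are given, because the annotation belongs to another release than the labels name. Shares and list counts have no test.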

Additional observations from a re-analysis of the deposited data

How the results depend on the processing

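The count of plastid rows lower in TINYOE against WT was 55, and between 51 and 60 with DESeq2 1.42.0, DESeq2 size factors, scaling on nuclear rows, no filter, a 5 CPM minimum in 3 libraries, or the 6 libraries compared only. Leaving out 1 library gave 40 to 60 lower and 0 to 2 higher, the 40 without TINYOE replicate 2. TINYOE against tiny124 gave 27 to 46 lower when 1 library was left out, beside 47. With no filter 1 row was higher in TINYOE (ATCG00620), and in tiny124 1 was higher (ATCG01020) and 1 lower (ATCG00370). Of the 55 rows, 38 kept the call in every alternative and 17 lost it at least once; 0 changed direction. Without the highest row the log2 ratio of the plastid share moved from -0.49 to -0.65 against WT and from -0.44 to -0.57 against tiny124. Replicate numbers were not used to pair the libraries in the main fit. Of 9 same-numbered pairs, 2 had correlated deviations above 0.1 (range -0.33 to 0.39), the highest being WT replicate 2 with tiny124 replicate 2. The labels give no batch, and whether same-numbered libraries share one was not tested. With the replicate block 54 rows were lower in TINYOE against WT and 46 against tiny124. In the nuclear lists for TINYOE against WT, the subunits gave 2 higher with no filter, and 3 to 9 lower and 1 to 3 higher with 1 library left out. The transcription list gave 2 lower with the 6 libraries compared only, 0 with the replicate block and 0 to 5 lower with 1 library left out. The RNA processing list gave 1 to 2 lower and 0 to 1 higher with 1 library left out. The planned share without plastid rRNA and tRNA rows was not run, because 127 plastid rows have no name here. Plastid totals were at least 202055 counts, and in rows of a few CPM small differences were not detectable. How far depth limited rows above that level was not tested. ATCG00100, at a mean of 16.3 CPM, had an SE of 0.49 in TINYOE against WT. No share over all genes is given for these alternatives, and the cause of these shifts was not tested.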
